A study of Homo sapiens with 6 samples.

Results

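The 3 RNA-seq libraries numbered replicate 2 were compared with the 3 numbered replicate 1 in a study of K562, a human cell line founded from chronic myeloid leukaemia, which carries the BCR-ABL1 fusion and makes embryonic and fetal haemoglobin. The 6 libraries of the series all belong to the comparison, and they were chosen by the replicate number in their titles. Each number holds 1 library with the control guide sgNeg2, labelled wild type, 1 with guide sgRNA1 and 1 with guide sgRNA2, both of which target the zinc-finger transcription factor ZNF410 and are labelled knockout. All 6 were grown in IMDM with fetal bovine serum and penicillin-streptomycin at 37 °C, and the labels give the same RNA kit and library kit for both numbers. What a replicate number stands for is not in the labels, nor is whether a guide's cells were a pool or 1 clone. Culture, harvest time, RNA extraction, library preparation and sequencing run therefore cannot be told apart here. In fits with guide as a term, p-values measure the spread of the replicate difference over 3 guide pairs.

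K562 cells sit between a progenitor and an erythroid state. When they move towards red cells, they raise globin genes, the haem synthesis enzymes, the transferrin receptor and the spectrin skeleton driven by GATA1, TAL1 and KLF1. The integrated stress response is another switch that cultured cells turn on and off: shortage of amino acids, haem deficiency or misfolded protein leads to phosphorylation of the initiation factor eIF2, translation of the transcription factor ATF4 and transcription of genes for amino acid synthesis, amino acid import and tRNA charging. Immediate early genes such as EGR1 and FOS are transcribed within minutes of growth factor or kinase signals and their messages are short-lived.

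The deposited counts summed to 8788816 to 9537470 per library over genes. Unaligned reads made up 4.34% to 4.50% of the count table in replicate 1 and 2.69% to 2.92% in replicate 2, so the numbers did not overlap. A two-sided exact permutation test of the libraries, which ignores the pairing by guide, gave p = 0.1, the smallest that 3 against 3 allows. Reads in no annotated gene made up 44.6% to 45.6% in replicate 1 and 45.9% to 46.9% in replicate 2, which did not overlap either (two-sided exact permutation p = 0.1). The 10 genes with the most counts held 5.48% to 5.65% of gene counts in replicate 1 and 4.95% to 5.10% in replicate 2. Mean fragment length was 289 to 302 bases in replicate 1 and 295 to 300.2 bases in replicate 2, and these ranges overlapped. Among the 9966 genes that averaged 50 counts or more, log2 CPM (counts per 1000000 counts of the library, after scaling) of libraries with the same number correlated at r = 0.985 to 0.993, and those of libraries with the same guide at r = 0.952 to 0.959. CHD4, a chromatin remodeller and ZNF410 target, stood at 589.5, 295 and 284 CPM in replicate 1 and 666, 318 and 326 CPM in replicate 2, with the control library first and then sgRNA1 and sgRNA2, an order kept throughout. ZNF410 itself stood at 38.2, 19.3 and 17 CPM in replicate 1 and 34, 24.5 and 20.6 CPM in replicate 2, so that in both numbers the 2 libraries of ZNF410 guides were below the control for each gene. Erythroid and leukaemic markers of K562 were present in every library, with 11 of 11 tested. Of 22 markers of lymphoid, myeloid, stromal and epithelial cells, 17 stayed under 1 CPM in every library and 8 had no count at all, among them ALB, ELANE, S100A8, S100A9 and MS4A1. Their summed level was 17.2 to 24.7 CPM in replicate 1 and 7.18 to 8.26 CPM in replicate 2. CD3D, a chain of the T-cell receptor complex, was the one called among them, at 17.8, 15 and 9.62 CPM in replicate 1 and 3.8, 1.89 and 1.74 CPM in replicate 2. The part of the unaligned and unannotated shares and of these markers in the differences below was not tested.

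The difference between replicate numbers was measured with the edgeR quasi-likelihood F-test in a fit with guide and replicate as terms, and a gene was called where its p, adjusted by Benjamini-Hochberg, lay under 0.05. Log2 differences are given as replicate 2 minus replicate 1, ± the standard error of the fit (n = 3 guide pairs). Of 12282 genes tested, 21.6% were called higher in replicate 2 and 23.5% lower, and 1.92% were called at least 2-fold higher and 5.57% at least 2-fold lower. The median over all tested genes was 0.00, with quartiles at -0.29 and 0.23. Of the 5529 genes called, 5469 moved the same way in all 3 guide pairs, and of all 12282 tested genes 8212 did (66.9%). The called genes were picked from these same pairs. Over 11307 genes tested in both deposited tables, 20.5% were called higher and 22.6% lower in the whole-number counts and in the expected counts alike, and 9 genes were called in opposite directions. The 3 guide pairs share no library, and across the 12282 genes their replicate differences correlated at r = 0.66 to 0.72, where the genes are not independent replicates.

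**Figure D1:**
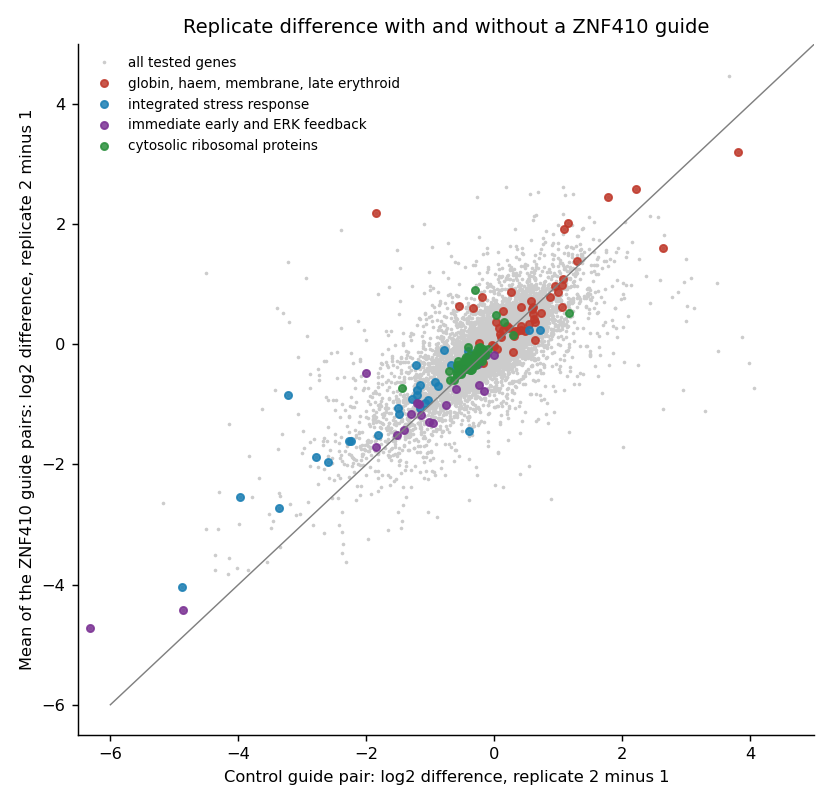
Each point is 1 of 12282 tested genes, with the log2 difference of replicate 2 minus replicate 1 in the control guide pair on the x axis and the mean of the same difference in the sgRNA1 and sgRNA2 pairs on the y axis. Most coloured erythroid genes lie in the upper right and the stress response and immediate early genes in the lower left, near the grey line of equal differences.

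Genes of the red cell were higher in replicate 2. Of 10 tested globin genes and globin partners, 7 were called higher (70%, against 21.6% of all genes) and 0 lower, 5 of them at least 2-fold (against 1.92% of all genes), with a list median of 0.92 against 0.00 over all genes. HBE1, the embryonic beta-type globin (chromosome 11), stood at 95.4, 152 and 161 CPM in replicate 1 and 443, 982 and 894 CPM in replicate 2. Every replicate 2 library exceeded every replicate 1 library, and the fitted difference was 2.47 ± 0.07 (edgeR adjusted p = 1.3e-11), a 5.54-fold higher level. HBZ, the embryonic alpha-type globin, stood at 90.0, 113 and 102 CPM in replicate 1 and 307, 613 and 563 CPM in replicate 2 and differed by 2.24 ± 0.10 (edgeR adjusted p = 1.0e-09). The 2 libraries of ZNF410 guides in replicate 2 were the highest for both embryonic genes. HBG2, a fetal globin gene, stood at 1011, 1194 and 1302 CPM in replicate 1 and 2117, 2724 and 2580.4 CPM in replicate 2 and differed by 1.08 ± 0.05 (edgeR adjusted p = 5.7e-10).

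The adult-type globins HBD and HBB were low in replicate 1 and were also higher in replicate 2. HBD had 4, 9 and 20 counts in replicate 1 and 88, 161 and 128 in replicate 2, a difference of 3.48 ± 0.29 (edgeR adjusted p = 3.9e-07), which was the largest increase among the genes named by rule. HBB had 9, 41 and 53 counts in replicate 1 and 72, 171 and 129 in replicate 2, a difference of 1.87 ± 0.24. Neither gene overlapped between numbers, which the naming rule required of HBD, and the replicate 1 levels rest on few counts. HBG1 and HBG2, like HBA1 and HBA2, are near-identical copies whose reads the counting could split, and HBG1 differed by 0.76 and HBA2 by 0.49, both called. The HBA2 call was lost in 3 of 19 other settings, among them the DESeq2 Wald test (adjusted p = 0.29) and edgeR without sgRNA1 replicate 1. With 1 library left out the HBA2 value ran from 0.32 without sgRNA2 replicate 2 to 0.80 without control replicate 1. HBA2 stood at 0.76 in the expected counts and at 0.88 there with the length trend removed. Summed over each pair in the expected counts, HBG1 and HBG2 held 3493, 4605 and 5093 CPM of expected counts in replicate 1 and 7643, 10328 and 9768 in replicate 2. HBA1 and HBA2 together held 1123, 1197 and 1339.8 in replicate 1 and 1495, 2298 and 2193 in replicate 2. Both sums were thus higher in replicate 2 in each guide pair. AHSP, the chaperone of free alpha-globin, was not called in the counts (-0.28) but was called lower in the expected counts (-0.30, edgeR adjusted p = 0.014), as was HBQ1 (-0.24 and -0.27). With the length trend removed from the expected counts neither was called (-0.18 for AHSP and -0.16 for HBQ1), and in the counts HBQ1 ran from -0.13 without sgRNA2 replicate 1 to -0.40 without sgRNA1 replicate 2, not called in either case. HBA1 was not called in the counts (0.29) and was called higher in the expected counts (0.61). In the counts HBA1 depends on the guide pair left out. It stood at 0.66 without control replicate 1 or 2, where it was called, and at -0.25 and -0.26 without sgRNA1 replicate 1 or 2, where it was not.

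Haem synthesis genes moved in the same direction. Of 13 tested, 10 were called higher (76.9%, against 21.6% of all genes) and none lower, with a median of 0.26. ALAS2, which makes the first committed step in erythroid cells, stood at 15.7, 13.9 and 20.5 CPM in replicate 1 and 35, 69.6 and 68.3 CPM in replicate 2, a difference of 1.76 ± 0.15 (edgeR adjusted p = 5.8e-07). The replicate 2 control library lay above all of replicate 1 and below both ZNF410 guide libraries of its number. FECH, which inserts iron into protoporphyrin, stood at 88.5, 95.2 and 117 CPM in replicate 1 and 217, 284 and 270.2 CPM in replicate 2 and differed by 1.36 ± 0.07 (edgeR adjusted p = 3.1e-09). ALAD differed by 0.97 ± 0.10, PPOX by 0.68 ± 0.12 and the mitochondrial transporter ABCB10 by 0.59 ± 0.06, all called. UROS, TMEM14C and SLC25A39 were not called, at 0.15, -0.01 and -0.04.

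Of 17 tested genes for the red-cell membrane and its skeleton, 11 were called higher (64.7%, against 21.6% of all genes) and none lower, with a median of 0.31 that rose to 0.50 without control replicate 1 or 2. SPTB, erythroid beta-spectrin, stood at 141, 157 and 185 CPM in replicate 1 and 280.1, 305 and 321 CPM in replicate 2 and differed by 0.92 ± 0.05 (edgeR adjusted p = 1.8e-08). SLC4A1, the band 3 anion exchanger, stood at 3.69, 2.64 and 3.24 CPM in replicate 1 and 8.12, 9.54 and 14.3 CPM in replicate 2, a low level in both numbers, and differed by 1.72 ± 0.23 (edgeR adjusted p = 3.6e-05). ANK1, which ties spectrin to band 3, differed by 0.61 ± 0.05 and EPB41, protein 4.1R, by 0.54 ± 0.05. GYPC (-0.02), DMTN (-0.07) and RHCE (-0.45) were among the 6 not called.

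The late erythroid list held 12 tested genes, of which 7 were called higher (58.3%, against 21.6% of all genes) and 1, FBXO7, lower (-0.16), a call that the expected counts did not give (edgeR adjusted p = 0.096) and that was lost without any 1 of the 6 libraries (edgeR adjusted p = 0.08 to 0.11). ERMAP, an erythroid membrane protein, differed by 1.01 ± 0.06, SELENBP1 by 0.67 ± 0.08, catalase (CAT) by 0.49 ± 0.06 and HEMGN by 0.40 ± 0.05. CA1, carbonic anhydrase 1, was not called (-0.01). Of 14 iron genes, 6 were called higher (42.9%, against 21.6% of all genes) and 1 lower (7.14%, against 23.5%). TFRC, the transferrin receptor, stood at 1629, 1666 and 1625 CPM in replicate 1 and 2688, 2724 and 2799 CPM in replicate 2 and differed by 0.74 ± 0.04 (edgeR adjusted p = 6.7e-09), and the ferritin chains FTH1 and FTL differed by 0.60 ± 0.04 and 0.19 ± 0.04, the FTL call being lost without sgRNA1 replicate 1 (0.16), without the guide term (edgeR adjusted p = 0.055) and in limma on log2(FPKM + 1) without the FPKM filter (adjusted p = 0.13). SLC11A2, the iron importer DMT1, differed by 0.50 ± 0.07.

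The transcription factors of the erythroid and progenitor programmes were split. Of 18 tested, 6 were called higher (33.3%, against 21.6% of all genes) and 8 lower (44.4%, against 23.5%), with a median of -0.10 that came to -0.02 with GC and length trends removed. TAL1 was higher by 0.56 ± 0.05, GFI1B by 0.38 ± 0.06, KLF1 by 0.25 ± 0.05 and LDB1 by 0.25 ± 0.05, the KLF1 call being lost in limma on log2(FPKM + 1) without the FPKM filter (adjusted p = 0.072). GATA1 was slightly lower, at 273, 296 and 289.9 CPM in replicate 1 and 244, 262 and 266 CPM in replicate 2, a difference of -0.15 ± 0.05 (edgeR adjusted p = 0.018). That call was lost in 6 of 19 other settings. Among them were the DESeq2 Wald test (adjusted p = 0.067), edgeR with the length trend removed (adjusted p = 0.099) and edgeR without sgRNA1 replicate 1 or 2. Among the 8 called lower were GATA2 at -0.58 ± 0.06, MYB at -0.55 ± 0.05, RUNX1 at -0.75 ± 0.06 and ETV6 at -0.90 ± 0.14. SPI1, which encodes PU.1 (chromosome 11) and antagonises GATA1 in the choice between myeloid and erythroid fates, stood at 28.8, 27.3 and 20.4 CPM in replicate 1 and 2.43, 3.04 and 2.72 CPM in replicate 2. Its replicate 2 levels were each under every replicate 1 level, with a difference of -3.21 ± 0.17 (edgeR adjusted p = 5.1e-09).

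**Figure D2:**
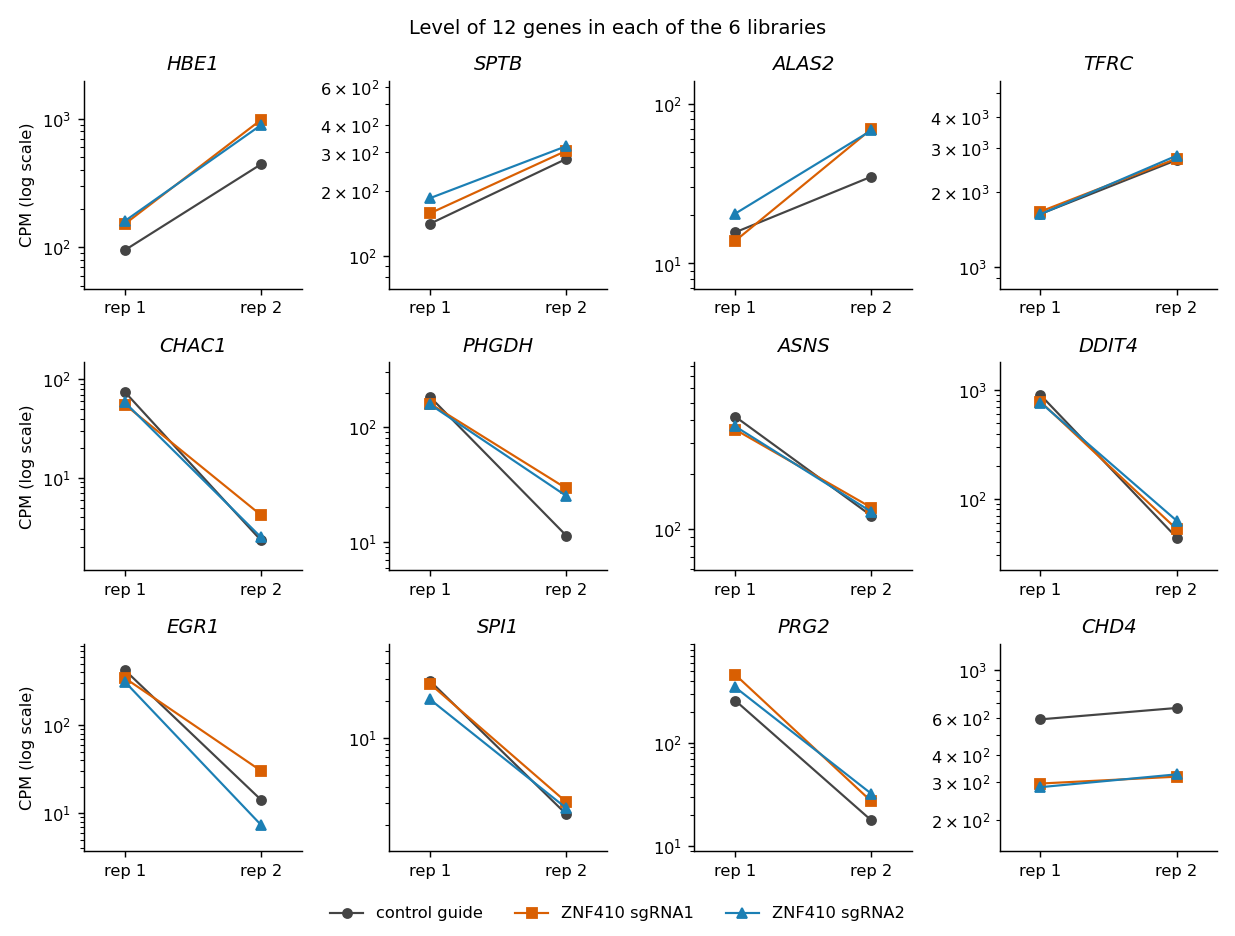
CPM on a log axis in the 6 libraries for 12 genes, with replicate 1 on the left and replicate 2 on the right of each panel and a line joining the libraries of 1 guide. HBE1 ran from 95.4 to 161 CPM in replicate 1 and from 443 to 982 in replicate 2, CHAC1 from 55.4 to 74.3 and from 2.32 to 4.19, and CHD4 is split by guide in both numbers.

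RefSeq promoter windows (GRCh38.p14, 250 bases before the annotated start) were available for 35 of the 52 tested genes of the globin, haem, membrane and late erythroid lists. The GATA motif, searched as AGATAA or TGATAA on both strands, was held by 14 of these 35 (40%) and by 10.5% of the windows of 9652 tested genes. Among genes called at least 2-fold higher 15.2% of windows held it, and among those called at least 2-fold lower 16.4%. The 2 windows below are shown because HBD and ALAS2 were the globin and the haem gene with the largest increases that had a window, and capitals mark the motif or its reverse complement.

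HBD (chr11:5234530-5234587, minus strand): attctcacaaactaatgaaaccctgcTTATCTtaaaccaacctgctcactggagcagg
ALAS2 (chrX:55031073-55031130, minus strand): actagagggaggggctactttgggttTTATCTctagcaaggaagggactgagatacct

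The first base of the motif lies 78 bases before the annotated HBD start and 127 bases before the ALAS2 start. A match in these letters is a description of the sequence, and no binding was measured.

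Genes of the integrated stress response were lower in replicate 2. Of 29 tested, 26 were called lower (89.7%, against 23.5% of all genes) and 2 higher, 15 were at least 2-fold lower (51.7%, against 5.57%), and the list median was -1.01. The same 26 and 2 were counted in both deposited tables. In the control, sgRNA1 and sgRNA2 pairs taken alone the median was -1.20, -0.92 and -0.90.

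CHAC1, a glutathione-degrading enzyme and one of the most inducible ATF4 targets (chromosome 15), stood at 74.3, 55.4 and 58.3 CPM in replicate 1 and 2.32, 4.19 and 2.5 CPM in replicate 2. Every replicate 2 level was far below every replicate 1 level, and the difference was -4.37 ± 0.17 (edgeR adjusted p = 2.9e-10). ATF3, a stress-induced transcription factor, stood at 46.6, 33.5 and 35.4 CPM in replicate 1 and 4.33, 5.14 and 4.89 CPM in replicate 2 and differed by -2.99 ± 0.15 (edgeR adjusted p = 2.9e-09). ATF4 itself stood at 486, 434 and 442 CPM in replicate 1 and 263, 279 and 262 CPM in replicate 2, a smaller difference of -0.76 ± 0.05 (edgeR adjusted p = 9.2e-08), with no overlap between the numbers. The partners CEBPB and CEBPG differed by -1.09 ± 0.07 and -0.91 ± 0.09, DDIT3, which encodes CHOP, by -0.64 ± 0.15 (-0.35 without control replicate 1 or 2, and not called in limma without the FPKM filter), and TRIB3, a pseudokinase that restrains ATF4, by -0.96 ± 0.06.

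Amino acid synthesis was represented by PHGDH, PSAT1 and PSPH, the 3 steps to serine, and by ASNS, which makes asparagine. PHGDH stood at 183, 160.3 and 158 CPM in replicate 1 and 11.4, 29.4 and 25.2 CPM in replicate 2, a difference of -2.94 ± 0.18 (edgeR adjusted p = 1.8e-08), and the control library of replicate 2 was the lowest. PSAT1 differed by -1.27 ± 0.07 and PSPH by -0.46 ± 0.12, the latter not called in the DESeq2 Wald test (adjusted p = 0.063). ASNS (chromosome 7) stood at 418, 354 and 369 CPM in replicate 1 and 118, 131 and 124 CPM in replicate 2, a difference of -1.61 ± 0.07 (edgeR adjusted p = 4.6e-10). CTH, the last step from methionine to cysteine, differed by -1.85 ± 0.15, whereas CBS, the step before it, was higher by 0.40 ± 0.09 (0.25 without control replicate 1 or 2). The mitochondrial folate enzymes were lower, with MTHFD2 at -0.96 ± 0.07, ALDH1L2 at -1.50 ± 0.33 and SHMT2 at -0.42 ± 0.05. ALDH1L2 stood at -0.86 without control replicate 1 or 2, where it was still called, and was not called in the DESeq2 Wald test (adjusted p = 0.088).

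Amino acid importers followed. SLC7A11, the cystine importer, differed by -1.21 ± 0.10, SLC38A2, a neutral amino acid importer, by -1.04 ± 0.07, and SLC7A5, the leucine importer, by -1.01 ± 0.05. Its heavy chain SLC3A2 differed by only -0.20 ± 0.06, which was called with all libraries but not without control replicate 1 or 2 (-0.10), nor in limma without the FPKM filter (adjusted p = 0.14). The secreted factors GDF15 and STC2 differed by -2.19 ± 0.15 and -1.82 ± 0.13, and SESN2, which senses leucine and restrains mTORC1, by -2.17 ± 0.11. INHBE, an inhibin chain that is also induced by this pathway, stood at 26.8, 26.2 and 19.8 CPM in replicate 1 and 0.528, 3.67 and 3.26 CPM in replicate 2, with the lowest level in the replicate 2 control. ASS1, which makes argininosuccinate on the way to arginine, stood at 32.4, 31.3 and 21.2 CPM in replicate 1 and 1.79, 1.99 and 1.52 CPM in replicate 2 and differed by -3.98 ± 0.17 (edgeR adjusted p = 5.7e-10). ATF5 was the other list gene called higher (0.34 ± 0.07).

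**Figure D3:**
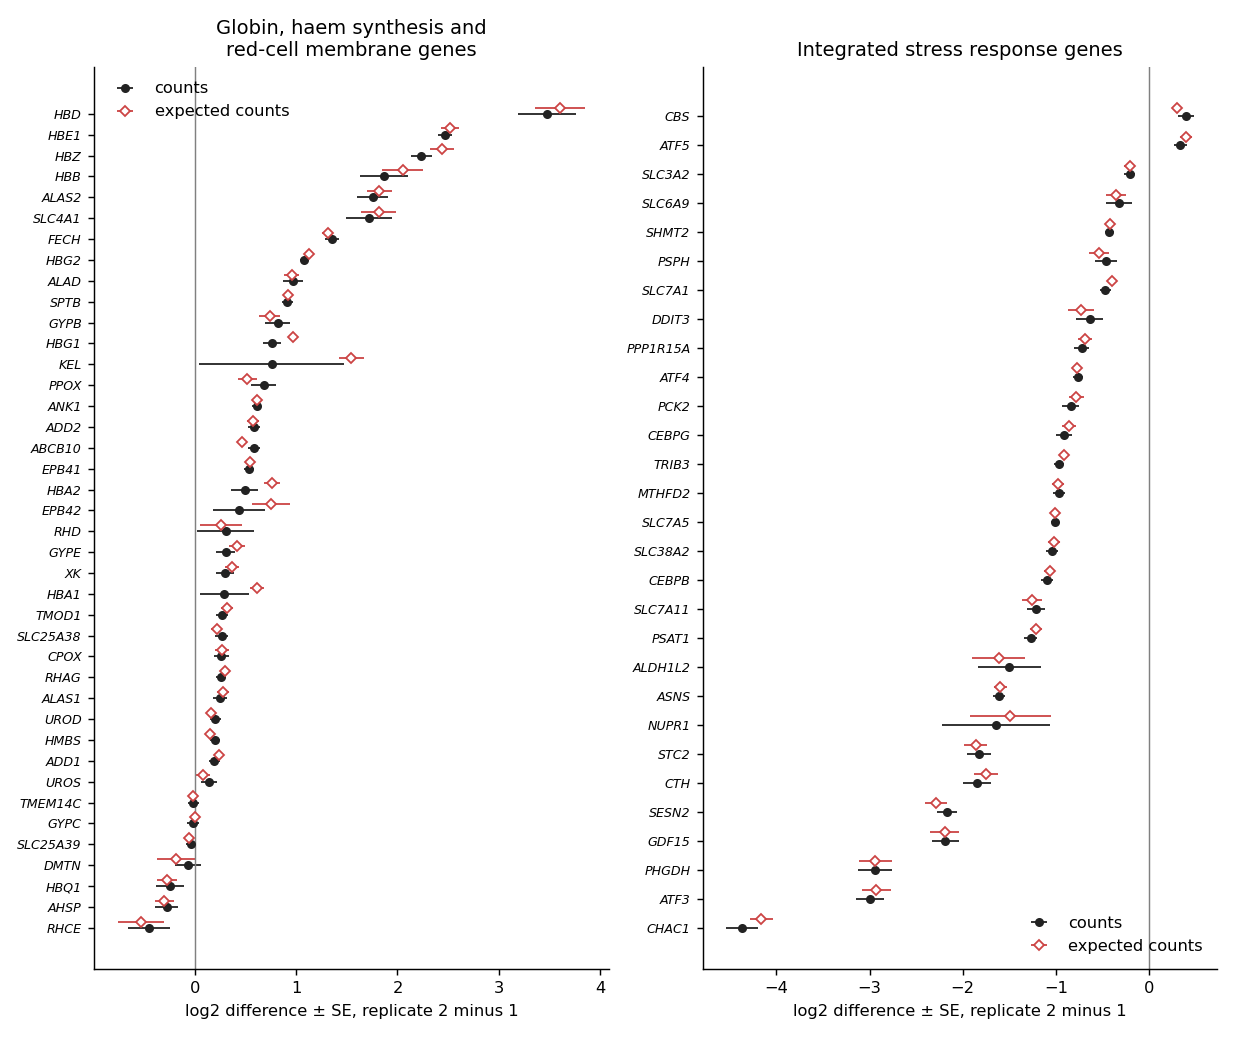
Log2 difference of replicate 2 minus replicate 1 with its standard error, from the whole-number counts (filled) and the expected counts (open). In the whole-number counts 28 of 40 globin, haem and membrane genes (left) were called higher and none lower. In the same counts 26 of 29 stress response genes (right) were called lower. Of all genes 21.6% were called higher and 23.5% lower. In the expected counts AHSP and HBQ1 were called lower.

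Windows before the start were available for 24 of the 29 stress response genes. The ATF4 motif, searched as TGATGNAA on both strands, was held by 4 of the 24 (16.7%) and by 2.13% of the windows of all tested genes. It was held by 6.35% of windows of genes called at least 2-fold lower and by 2.44% of those called at least 2-fold higher. These 4 windows are shown because they belong to the transcription factors ATF3 and CEBPG and the enzymes CHAC1 and ASNS, all called lower.

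CHAC1 (chr15:40953236-40953295, plus strand): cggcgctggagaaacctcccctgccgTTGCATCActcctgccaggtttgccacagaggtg
ASNS (chr7:97872443-97872502, minus strand): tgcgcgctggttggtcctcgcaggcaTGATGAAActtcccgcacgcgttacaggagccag
ATF3 (chr1:212565190-212565249, plus strand): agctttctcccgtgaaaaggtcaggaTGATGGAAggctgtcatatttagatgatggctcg
CEBPG (chr19:33374045-33374104, plus strand): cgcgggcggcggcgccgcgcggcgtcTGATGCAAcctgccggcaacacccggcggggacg

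Capitals mark the motif or its reverse complement, whose first base lies 209 bases before an annotated CHAC1 start, 68 before ASNS, 191 before ATF3 and 42 before CEBPG. The letters CCAAT were held by 66.7% of the stress response windows and 41.7% of all windows, and the ETS letters CCGGAAGT by 4.17% and 8.83%. Of windows of genes called at least 2-fold lower, 1.84% held the ETS letters. The KLF letters CCNCNCCC were in 83.3% and 77.6%, the E-box CACGTG in 8.33% and 11.4%, and AP-1 (TGANTCA) in 12.5% and 5.55% of the stress response and of all windows. The SREBP letters TCACNCCAC were in none of the 24 and in 1.1% of all windows.

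Charging enzymes for tRNA, several of them ATF4 targets, were lower by smaller amounts. Of 20 cytosolic synthetases 14 were called lower (70%, against 23.5% of all genes) and 1 higher, with a median of -0.23. WARS differed by -0.82 ± 0.06, AARS by -0.63 ± 0.05 and GARS by -0.53 ± 0.05. CARS differed by -1.66 in the counts and -0.69 in the expected counts, so its size depends on the table. HARS and RARS were not called (0.05 and 0.01), and FARSA was called higher at 0.16 ± 0.05, but not without control replicate 1 or 2 (0.11 in each case).

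Of 19 genes of the unfolded protein response 4 were called higher and 4 lower (21.1% each, near the 21.6% and 23.5% of all genes), with a median of 0.05. HERPUD1, which also answers to ATF4, and XBP1, which encodes another factor of the response, were both called lower, at -0.90 ± 0.08 and -0.29 ± 0.06. HSPA5, the BiP chaperone, was higher by 0.23 ± 0.06 and CALR by 0.27 ± 0.05. HSPA5 fell to 0.12 and 0.11 without control replicate 1 or 2. Its call was lost in 2 of 19 other settings, among them the DESeq2 Wald test (adjusted p = 0.13). Of 21 heat shock genes 11 were called higher (52.4%) and 3 lower (14.3%), with a median of 0.15. HSPA1A stood at 17.9, 37.7 and 43.3 CPM in replicate 1 and 66.6, 61.9 and 61.8 CPM in replicate 2 and differed by 0.98 ± 0.17 (0.62 without control replicate 1 and 0.61 without control replicate 2), DNAJB1 by 0.58 ± 0.08, HSPH1 by 0.47 ± 0.07 and HSPA8 by 0.36 ± 0.04. The 3 called lower were HSPA6, an inducible HSP70, at -2.13 ± 0.59, HSP90AA1 at -0.19 ± 0.04 and HSPB1 at -0.19 ± 0.05. HSPA6 had 16, 8 and 11 counts in replicate 1 and 2, 3 and 3 in replicate 2, and its call was lost without control replicate 1 or 2 (-1.64) and in the DESeq2 Wald test (adjusted p = 0.11). The HSPB1 call was lost with the length trend removed in edgeR (-0.11) and without the guide term (edgeR adjusted p = 0.065), and the HSP90AA1 call in limma on log2(FPKM + 1) without the FPKM filter (adjusted p = 0.058).

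NRF2 targets, which detoxify oxidants, were mostly higher. Of 15 tested, 11 were called higher (73.3%, against 21.6% of all genes) and 2 lower, with a median of 0.29. OSGIN1 stood at 7.84, 7.81 and 6.06 CPM in replicate 1 and 19.7, 27.9 and 21.8 CPM in replicate 2 and differed by 1.67 ± 0.15 (edgeR adjusted p = 6.4e-07). AKR1C1, an aldo-keto reductase whose close relatives share sequence with it, differed by 1.28 ± 0.07, NQO1, a quinone reductase, by 0.97 ± 0.06, PRDX1 by 0.53 ± 0.04 and TXNRD1 by 0.41 ± 0.06. TKT and TALDO1 of the pentose phosphate pathway were the 2 called lower (-0.22 and -0.15). The TALDO1 call was lost in 8 of 19 other settings, among them edgeR with the length trend removed (-0.09) and without sgRNA2 replicate 1 or 2 (-0.14). In edgeR the TKT call was lost without sgRNA1 replicate 1 (-0.18). The TKT call was also lost in limma without the FPKM filter (adjusted p = 0.058).

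Immediate early genes and feedback regulators of ERK signalling were lower in replicate 2. Of 21 tested, 16 were called lower (76.2%, against 23.5% of all genes), 12 of them at least 2-fold, and none was called higher. The list median was -1.08, and -1.03, -0.98 and -1.02 in the 3 guide pairs. EGR1 (chromosome 5) stood at 423, 344 and 312 CPM in replicate 1 and 14.2, 30.4 and 7.39 CPM in replicate 2, a difference of -4.40 ± 0.21 (edgeR adjusted p = 1.7e-09). The numbers were far apart with every guide, and within replicate 2 sgRNA1 was the highest and sgRNA2 the lowest. FOS had 149, 156 and 100 counts in replicate 1 and 0, 6 and 1 in replicate 2, a difference of -5.87 ± 0.40 (edgeR adjusted p = 5.8e-08) that rests on 7 counts in all of replicate 2.

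Other members were lower by less. JUN differed by -1.18 ± 0.12, JUNB by -1.43 ± 0.07, JUND by -0.93 ± 0.07 and IER2 by -1.51 ± 0.05. NR4A1, an orphan nuclear receptor, stood at 14.3, 16.4 and 17.3 CPM in replicate 1 and 3.8, 5.77 and 4.35 CPM in replicate 2 and differed by -1.79 ± 0.17. ETV4, SPRY2 and SPRY4, which ERK signalling induces, differed by -1.20 ± 0.07, -1.08 ± 0.16 and -0.69 ± 0.10. DUSP1, SRF and SPRED2 were not called in the counts (-0.27, -0.12 and -0.15), and DUSP1 and SRF were called lower in the expected counts (-0.30 and -0.15). In the counts SRF stood at -0.17 without control replicate 1 or 2, where it was called, and at -0.05 without sgRNA2 replicate 1 or 2, where it was not. SPRED2 was called lower with the length trend removed (-0.17) and stood at -0.10 without sgRNA2 replicate 1 or 2, not called. JDP2, a repressor that pairs with JUN, stood at 13.3, 10.5 and 12 CPM in replicate 1 and 0.633, 1.05 and 1.41 CPM in replicate 2 and differed by -3.52 ± 0.27 (edgeR adjusted p = 2.1e-07), and CD69, an early activation antigen, stood at 27.2, 15 and 13.4 CPM in replicate 1 and 1.16, 1.36 and 1.63 CPM in replicate 2 and differed by -3.69 ± 0.25 (edgeR adjusted p = 5.6e-08).

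Targets of STAT5, which BCR-ABL1 activates, were lower as a majority. Of 10 tested, 7 were called lower (70%, against 23.5% of all genes) and 2 higher (20%, against 21.6%), with a median of -0.50. PIM1, a survival kinase, stood at 1127, 1089.5 and 1064 CPM in replicate 1 and 628, 655 and 589.7 CPM in replicate 2 and differed by -0.81 ± 0.04 (edgeR adjusted p = 8.7e-09). CCND2, cyclin D2, differed by -1.60 ± 0.11, BCL2L1, which encodes BCL-XL, by -0.80 ± 0.05 and CISH by -0.43 ± 0.06. SOCS2 and SOCS1 were the 2 called higher (0.27 and 0.72), and in edgeR the SOCS2 call was lost without sgRNA1 replicate 1 or 2 (0.21 in each case) and without the guide term (adjusted p = 0.28), and the SOCS1 call without control replicate 1 or 2 (0.52 in each case). The SOCS1 call was also lost in the DESeq2 Wald test (adjusted p = 0.091) and in limma without the FPKM filter (adjusted p = 0.12). Of 7 tested genes that answer to TGF-beta or BMP, 6 were called lower (85.7%), with a median of -0.70. The inhibitory SMADs SMAD7 and SMAD6 differed by -1.53 ± 0.19 and -1.06 ± 0.19, and ID3 by -0.88 ± 0.13. Of 9 NF-kB targets 4 were called lower (44.4%) and 1 higher, with TNFAIP3 at -1.54 ± 0.24, NFKB2 at -1.13 ± 0.09 and NFKB1 at 0.98 ± 0.10. Of 13 interferon-stimulated genes 4 were called lower (30.8%, against 23.5% of all genes) and none higher. IFITM1, an antiviral membrane protein, differed by -0.77 ± 0.05 and BST2 by -0.40 ± 0.06.

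Among the 15 genes lowest in replicate 2 by the naming rule were 4 that are described next. PRG2, the major basic protein of eosinophil granules (chromosome 11), stood at 257, 457 and 345 CPM in replicate 1 and 17.6, 26.9 and 32 CPM in replicate 2. It was lower in replicate 2 with every guide, with a difference of -3.79 ± 0.09 (edgeR adjusted p = 2.5e-12). MS4A3, a membrane protein of granulocyte progenitors and basophils, stood at 105, 70.0 and 50.7 CPM in replicate 1 and 4.85, 4.93 and 5.22 CPM in replicate 2 and differed by -3.88 ± 0.15. FCGR2A, an Fc receptor for IgG, stood at 102, 65.5 and 53.2 CPM in replicate 1 and 9.81, 5.35 and 5.65 CPM in replicate 2 and differed by -3.41 ± 0.11 (edgeR adjusted p = 2.0e-11). CSF2RB, the shared beta chain of the IL-3, IL-5 and GM-CSF receptors, stood at 7.5, 11.4 and 12.8 CPM in replicate 1 and 1.27, 1.05 and 0.761 CPM in replicate 2 and differed by -3.32 ± 0.29. None of these 4 genes overlapped between the numbers, which the naming rule required. The defining neutrophil markers ELANE and S100A8 had no count in any library and MPO had 1 count in 1 library, and CD14 and CSF1R stayed under 1 CPM. The part of other cells in these differences was not tested, and in bulk RNA fewer cells of a type and less RNA per cell cannot be told apart.

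Of the megakaryocyte list, 5 of 17 genes were tested, and 1 was called in each direction (20% each, near the 21.6% higher and 23.5% lower of all genes). ITGA2B, platelet integrin alpha-IIb, stood at 28.7, 36.1 and 32.9 CPM in replicate 1 and 2.95, 4.61 and 6.09 CPM in replicate 2 and differed by -2.85 ± 0.16 (edgeR adjusted p = 8.8e-09). TUBB1, the beta-tubulin of platelets, stood at 12.9, 19.9 and 24.3 CPM in replicate 1 and 48.9, 65.1 and 62.9 CPM in replicate 2 and differed by 1.64 ± 0.11 (edgeR adjusted p = 3.7e-08). The pair moved in opposite directions in all 3 guide pairs. DLK1, a Notch-like membrane protein of immature cells, stood at 104, 92 and 72.6 CPM in replicate 1 and 9.07, 10.3 and 8.91 CPM in replicate 2 and differed by -3.24 ± 0.10 (edgeR adjusted p = 2.0e-11), and TDRG1 differed by -3.96 ± 0.26.

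Among genes called higher that belong to no list, MAP1A, a microtubule-associated protein, stood at 20.6, 39.6 and 40.9 CPM in replicate 1 and 130.4, 139 and 146 CPM in replicate 2 and differed by 2.06 ± 0.12 (edgeR adjusted p = 9.7e-09). BSN and UNC13A, both known from the presynaptic terminal, differed by 1.64 ± 0.12 and 1.68 ± 0.21. ACSL6, an acyl-CoA synthetase, differed by 1.58 ± 0.19, IRS1, an adaptor of the insulin receptor, by 1.59 ± 0.30, ANKRD33B by 1.74 ± 0.17 and SAXO2 by 1.57 ± 0.17. None of these 7 overlapped between the numbers, which the naming rule required.

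Genes of the calcium-binding S100 family, annexins and the cytoskeleton were lower more often than higher, with 14 of 23 called lower (60.9%, against 23.5% of all genes) and 5 higher (21.7%, near the 21.6% of all genes) and a median of -0.45. VIM, vimentin, stood at 668, 469 and 386 CPM in replicate 1 and 335, 297 and 243 CPM in replicate 2 and differed by -0.78 ± 0.06. TMSB10 differed by -0.98 ± 0.05, S100A11 by -1.03 ± 0.07, ANXA1 by -1.01 ± 0.12 and ACTG1 by -0.62 ± 0.05. S100A10 and S100A4 were higher by 1.52 ± 0.27 and 0.93 ± 0.10.

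Ribosomal protein genes were lower nearly as a block. Of 79 tested, 70 were called lower (88.6%, against 23.5% of all genes) and 1 higher, none of them at least 2-fold, with a median of -0.35. RPL3 stood at 3254, 3115 and 2985 CPM in replicate 1 and 2006, 2087 and 1964 CPM in replicate 2 and differed by -0.63 ± 0.04 (edgeR adjusted p = 4.1e-08), and RPL13 and RPS14 differed by -0.60 ± 0.04 and -0.52 ± 0.04. RPS26 was the gene called higher (0.20 ± 0.05), though not without sgRNA1 replicate 1 (0.18) or sgRNA1 replicate 2 (0.18). These messages are short, and the fifth of tested genes with the shortest transcripts had a median of -0.06 and the fifth with the longest 0.07. With the trend on transcript length removed the list median was -0.25, still negative. The part of length in the difference was not tested. By contrast, 14 of 30 genes for ribosome assembly were called higher (46.7%, against 21.6% of all genes) and 2 lower (6.67%, against 23.5%), with a median of 0.10. In the fifth of all tested genes with the longest transcripts 33.2% were called higher. UTP20 and POLR1A differed by 0.54 ± 0.06 and 0.52 ± 0.05 and NOP56 by 0.46 ± 0.06, while MYC was called lower, at -0.40 ± 0.06.

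Of 48 DNA replication genes 19 were called higher (39.6%, against 21.6% of all genes) and 2 lower, with a median of 0.10 that fell to 0.06 without control replicate 1 or 2. CCNE2, cyclin E2, differed by 0.74 ± 0.11 and RRM2 by 0.48 ± 0.06, whereas CDT1, the licensing factor that is destroyed in S phase, was lower (-0.78 ± 0.05). Of 42 mitotic genes 7 were called higher (16.7%, against 21.6% of all genes) and 13 lower (31%, against 23.5%), with a median of -0.03. AURKB stood at -0.56 ± 0.06 and PTTG1 at -0.44 ± 0.06, and MKI67 at 0.61 ± 0.06. Of 19 genes that restrain growth or division, 10 were called lower (52.6%, against 23.5% of all genes), 4 of them at least 2-fold, and 3 higher, with a median of -0.37. TXNIP, which limits glucose uptake, stood at 381, 331 and 315 CPM in replicate 1 and 82.1, 84.4 and 80.3 CPM in replicate 2 and differed by -2.05 ± 0.06 (edgeR adjusted p = 1.3e-11). FOXO3 differed by -0.37 ± 0.06, GADD45A by -0.88 ± 0.07 and CDKN2C by 0.42 ± 0.07, whereas CDKN1A stood at -1.22 and was not called in the counts. CDKN1A was called lower in the expected counts (-1.17), and in the counts it stood at -0.54 without control replicate 1 or 2, not called, and at -2.10 without sgRNA1 replicate 1 or 2, called.

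Among 12 genes of the BCL2 family, 6 were called lower (50%, against 23.5% of all genes) and 1 higher. The BH3-only genes BBC3 (PUMA) and PMAIP1 (NOXA), which promote apoptosis, differed by -1.60 ± 0.12 and -0.94 ± 0.12. BCL2L1, which encodes BCL-XL and is named above, was called lower too (-0.80 ± 0.05). BCL2L11 (BIM) was called higher at 0.26 ± 0.09, a call that was lost in the DESeq2 Wald test, without the guide term (edgeR adjusted p = 0.059), at 0.16 without control replicate 1 or 2, and in limma on log2(FPKM + 1), where it stood at 0.03. MCL1 and BAX were not called (-0.13 and -0.08). MCL1 was called lower in 4 of 19 other settings, among them without sgRNA2 replicate 2 (-0.16), and stood as near to 0 as -0.06 with another library left out.

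**Figure D4:**
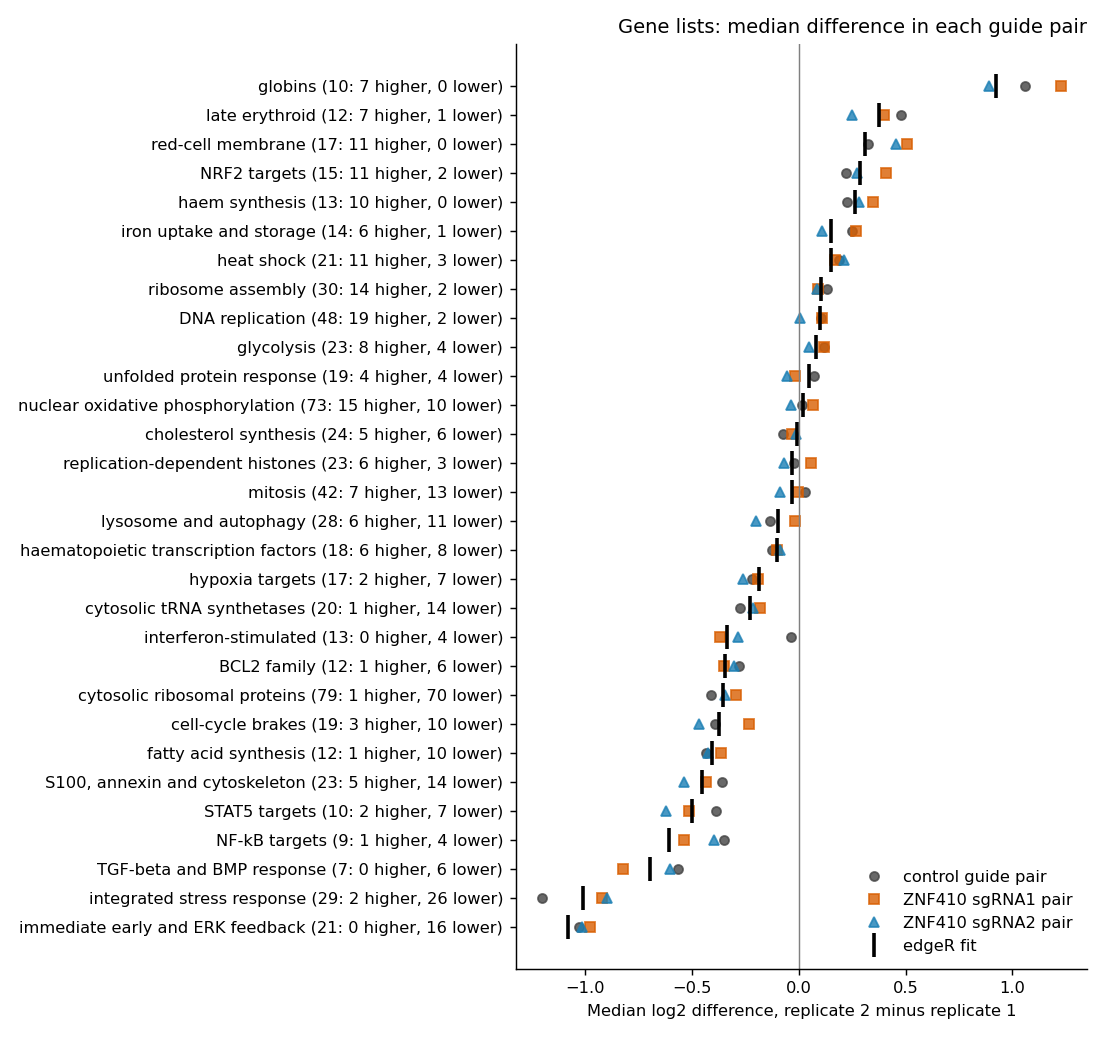
Median log2 difference of each gene list with 7 or more tested genes, in the 3 guide pairs (symbols) and in the edgeR fit (bars), with the number tested and called in each direction after its name. The medians run from -1.08 for the immediate early list to 0.92 for the globins, and in most lists the 3 guide pairs lie on the same side of 0.

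Metabolic lists were mixed. DDIT4, which restrains mTORC1 and answers to hypoxia, energy stress and ATF4 (chromosome 10), stood at 908, 788 and 773 CPM in replicate 1 and 43.9, 52.5 and 62.8 CPM in replicate 2. The difference of -3.96 ± 0.10 (edgeR adjusted p = 2.5e-12) left no overlap between the numbers. It was 1 of 7 hypoxia targets called lower of 17 tested (41.2%, against 23.5% of all genes), beside VEGFA (-1.08 ± 0.10) and EGLN3 (-0.83 ± 0.09), and 2 were called higher (11.8%, against 21.6%), BNIP3 (0.54 ± 0.10) and BNIP3L (0.55 ± 0.08), the second of which clears mitochondria in maturing red cells. Of 23 glycolysis genes 8 were called higher (34.8%, against 21.6% of all genes) and 4 lower (17.4%, against 23.5%). SLC2A1, the main glucose importer of red cells, was higher by 0.68 ± 0.06, while SLC2A3, another glucose importer, differed by -1.10 ± 0.06. PKM and HK2 were higher by 0.51 ± 0.05 and 0.45 ± 0.07.

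Fatty acid synthesis genes were called lower in 10 of 12 cases (83.3%, against 23.5% of all genes) and higher in 1, with a median of -0.41. FADS1, a desaturase, stood at 1274, 1157 and 1096 CPM in replicate 1 and 409.9, 402 and 419 CPM in replicate 2 and differed by -1.52 ± 0.05 (edgeR adjusted p = 5.7e-11), and SCD, ELOVL6 and FASN differed by -0.66 ± 0.04, -0.83 ± 0.06 and -0.34 ± 0.05. FADS2 stood at -1.12 in the counts and -0.10 in the expected counts, where it was not called (edgeR adjusted p = 0.31). In both tables alike, 8 of the 12 genes were called lower. ME1, which is also an NRF2 target, was the exception at 0.75 ± 0.10. Of 24 cholesterol genes 5 were called higher (20.8%) and 6 lower (25%), near the 21.6% and 23.5% of all genes, with a median of -0.01. INSIG1 differed by -1.07 ± 0.05, and HMGCS1 was higher by 0.51 ± 0.06. LSS was higher by 1.39 in the counts and 0.93 in the expected counts. Of 73 nuclear genes of oxidative phosphorylation 15 were called higher (20.5%, near the share of all genes) and 10 lower (13.7%), with a median of 0.02. Of 28 lysosome and autophagy genes 6 were called higher (21.4%, near the share of all genes) and 11 lower (39.3%), the latter including GRN (-0.71 ± 0.07) and MAP1LC3B (-0.48 ± 0.06).

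Other gene classes were counted as a whole. Of 331 ZNF genes 57 were called higher (17.2%) and 36 lower (10.9%), with a median of 0.05, and of 116 LINC transcripts 18 (15.5%) and 16 (13.8%), all under the 21.6% and 23.5% of all genes, with a median of 0.01. Of 17 SNHG genes, hosts of small nucleolar RNAs, 7 were called higher (41.2%, against 21.6% of all genes) and 3 lower, with a median of 0.46 in the counts and 0.25 in the expected counts. Of 23 replication-dependent histone genes 6 were called higher (26.1%) and 3 lower (13%). Of 4 tested metallothionein and zinc genes, MTF1 and the zinc exporter SLC30A1 were called higher (0.54 and 0.43). Chromosome medians ran from -0.08 on chromosome 18 to 0.13 on chromosome 21. By GC content, the fifth of genes lowest in GC had a median of 0.03 and the fifth highest in GC -0.07. By level, the 2458 genes with the lowest CPM had a median of -0.14, with 8.46% called higher and 19.4% lower. The 2457 genes with the highest CPM had a median of 0.04, with 33% called higher and 25.1% lower. The share called thus varied with level, and the shares of all genes were not matched by level to any class or list. The part of level in the lower shares of ZNF and LINC genes was not tested.

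The replicate difference itself was compared between the genotypes, as the mean of the ZNF410 guide pairs minus the control guide pair. In edgeR, 205 of 12282 genes (1.67%) were called for this interaction, 117 with a more positive and 88 with a more negative difference in the ZNF410 guides. That test has 1 residual degree of freedom, and the DESeq2 Wald test called 8 genes and limma on log2(FPKM + 1) 16. PHGDH differed by -3.98, -2.44 and -2.63 in the control, sgRNA1 and sgRNA2 pairs, an interaction of 1.46 (edgeR adjusted p = 6.8e-15). DDIT4 differed by -4.36, -3.90 and -3.62, an interaction of 0.61 (edgeR adjusted p = 2.1e-05). For HBE1 the 3 pairs stood at 2.21, 2.69 and 2.47, an interaction of 0.37 (edgeR adjusted p = 0.021), and for ALAS2 at 1.15, 2.31 and 1.72, an interaction of 0.85 (edgeR adjusted p = 0.0082). The sign of the replicate difference was the same in all 3 pairs for each of these 4 genes. The DESeq2 Wald test called the interaction of PHGDH (adjusted p = 0.0029) and not those of DDIT4 (0.47), HBE1 or ALAS2 (adjusted p = 1.0 for each). With GC and length trends removed in edgeR those of HBE1 (adjusted p = 0.087) and ALAS2 (0.075) were not called, and in the expected counts that of ALAS2 was not (0.094).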

How the data were processed

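RNA of 6 K562 libraries was sequenced, 3 per replicate number. Per the submitters' processing notes, Trim Galore, HISAT2 2.2.1, SAMtools 1.9, HTSeq 0.6.1, RSEM 1.3.2, DESeq2 1.36.0 and build hg38 were used, and the strand setting is not given in the sources used here. The authors deposited whole-number counts per gene symbol (26485 symbols) and, per the file headers, expected counts, FPKM and TPM per gene (28069 genes), which are scaled by the authors for length and depth in the last 2. TPM entered no test. Count rows that name no gene held 61.6% to 62.6% of each table and were left out.

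Gene counts were fitted with edgeR 4.0.16 (R 4.3.3, TMM, filterByExpr by guide, terms guide and replicate, 2 residual degrees of freedom), with Benjamini-Hochberg adjustment, and the standard error is the log2 difference over the square root of F. CPM values use TMM library sizes. Expected counts were rounded. The numbers pair the libraries by guide, so guide is a term. Named genes were the 15 highest and 15 lowest of 385 that were called at least 2-fold, called the same way in the expected counts, had a mean of at least 5 CPM, a ratio of counts to expected counts of 0.25 to 2 and no overlap between numbers, plus members of the 38 gene lists, ZNF410 and CHD4. For the 15 in each direction, absence of overlap was thus a condition and not a result. Members of the comparison and the lists were chosen with earlier results of these data known. None of the 13 mitochondrially encoded genes of a list was matched. Procedures were tested on simulated data. Other settings used DESeq2 1.42.0 and limma 3.58.1. Some genes are not reported here and were left out of the lists.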

Additional observations from a re-analysis of the deposited data

Results flagged for a closer look

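In 29 genes named above the replicate difference itself differed between ZNF410 guides and the control guide in the edgeR interaction test, which has 1 residual degree of freedom. The DESeq2 Wald test called 1 of the 29, PHGDH, the expected counts 22, and the fit with GC and length trends removed 19. Values are the log2 difference in the ZNF410 guide pairs minus that in the control pair, so that a positive value for a gene lower in replicate 2 stands for a smaller gap with the ZNF410 guides. They rest on 1 control pair, and no cause was tested.

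Among stress response genes and their relatives, the interaction was 1.46 for PHGDH, 2.54 for ALDH1L2, 2.91 for INHBE, 0.93 for GDF15, 0.89 for DDIT3, 0.65 for SESN2, 0.61 for DDIT4, 0.38 for SLC38A2, 0.36 for MTHFD2 and 0.30 for WARS. All of these are positive, whereas CBS, which was higher in replicate 2, stood at -0.47. In the expected counts CBS was not called.

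Among globin and erythroid genes, HBE1 stood at 0.37, HBZ at 0.68, HBA1 at 1.21, HBA2 at 0.99, ALAS2 at 0.85, HBG1 at -0.43 and CA1 at -0.43. The HBG1 value comes from a near-identical copy of HBG2 and was not called in the expected counts, nor were those of ALAS2 and CA1.

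The heat shock and chaperone genes among those called were all negative, with HSPA1A at -1.28, DNAJB1 at -0.48, HSPH1 at -0.38 and HSPA5 at -0.35. They were picked by the call, so they do not describe the rest of their lists. The others were EGR1 at 0.74, VEGFA at 0.68, VIM at 0.33, MYC at -0.34, MAP1A at -0.83, HMGCS1 at 0.33 and LSS at -1.15. Of these, EGR1, VIM and LSS were not called in the expected counts.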

How the results depend on the processing

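No count of genes called higher or lower changed by more than 1.5 times except in the DESeq2 Wald test, which called 1627 higher and 1811 lower against 2647 and 2882. Counts at least 2-fold higher (236) and lower (684) fell to 94 and 341 with a mean of at least 50 counts, where fewer genes were tested, to 151 higher in the DESeq2 Wald test, to 59 and 266 with limma on log2(FPKM + 1) and to 55 and 263 without its FPKM filter, a scale that shrinks low genes. With 1 library left out they were 1920 to 2686 higher, 2059 to 2824 lower, 204 to 292 at least 2-fold higher and 606 to 724 at least 2-fold lower. Without the pairing by guide (no replicate block) they were 2412, 2616, 221 and 662. The 205 interaction calls were least stable, at 8 in the DESeq2 Wald test, 16 in limma, 7 with a pseudocount of 0.1, 0 without the FPKM filter, 87 with GC and length trends removed and 376 in expected counts with the length trend removed. The last 2 settings were chosen after seeing the data, and the cause was not tested. Leaving out a library was not possible for the interaction. For the replicate difference, guide is a term, so leaving out 1 library also takes out the rest of its guide pair. The 2 fits of a pair are therefore not separate checks. Of 177 named genes called, 155 kept call and direction in every setting and none reversed. Of 37 list medians 29 kept their sign, and those of the cholesterol, oxidative phosphorylation, histone, unfolded protein, mitosis, megakaryocyte, metallothionein and LINC lists did not. Depth limits genes such as FOS and HBD, whose lower group rests on few counts.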

Other observations

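By gene class, which entered no comparison above, 9 of 47 tested small nucleolar RNA genes were called higher in replicate 2 (19.1%, against 21.6% of all genes) and none lower, with a median log2 difference of 0.52. Of 253 transcribed pseudogenes 63 were called higher (24.9%) and 16 lower (6.32%, against 23.5% of all genes), with a median of 0.22. Of 646 long non-coding RNA genes 99 were called higher (15.3%) and 83 lower (12.8%), with a median of 0.09. Of 11075 protein-coding genes 2435 were called higher (22%) and 2744 lower (24.8%), with a median of -0.01. Reads of small nucleolar RNA genes can come from the introns of their host genes, and this was not tested. The share called varied with level, as given above, and these classes were not matched to all genes by level.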
